A study of Mus musculus with 6 samples.

Results

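The genes described are 10 members of the hypoxia-inducible factor (HIF) pathway, taken from the expression table by their exact symbols. They are the alpha subunits Hif1a and Epas1, the prolyl hydroxylases Egln1 and Egln3, and the HIF targets Vegfa, Bnip3, Ndrg1, Ddit4, Ankrd37 and P4ha1. All 10 were found among 55487 gene rows, each on a single row, and all 10 passed the low-count filter that left 14478 genes for testing. Poly(A) RNA was sequenced from macrophages grown for 8 days from the bone marrow of female wild-type Balb/c mice, 6 to 12 weeks of age, in medium with 20% L929 fibroblast conditioned medium. All cells were then polarized towards the M2 (alternatively activated) state with IL-4 and IL-13, each at 10 ng/mL, for 24 hours. One group of 3 samples received nanoparticles at 200 µg/mL for 24 hours (NP; labelled PEMA, a term not explained in the sources used here, with particles of poly(lactide-co-glycolide) per the series title), and the other group of 3 received PBS. Since no label states that the 3 samples of a group came from different cultures or mice, the p-values cover the spread among these libraries only, which may be technical.

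Cells sense oxygen through HIF, a transcription factor made of an oxygen-regulated alpha subunit (HIF-1 alpha from Hif1a or HIF-2 alpha from Epas1) and the stable beta subunit ARNT. With oxygen present, the EGLN prolyl hydroxylases mark the alpha subunit, and the VHL ubiquitin ligase then directs its destruction. When hydroxylation is low, the dimer binds short core letters in DNA and raises genes for glycolysis, vessel growth, mitophagy and collagen modification. The control acts mainly on the alpha protein, so the messenger RNA level of Hif1a or Epas1 does not by itself report HIF activity. In macrophages HIF-1 alpha is also raised by inflammatory signals, while HIF-2 alpha is known from the IL-4 response.

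Total counts ran from 41974957 to 56265590 in PBS and from 60702163 to 69450411 in NP, with all NP libraries deeper than any PBS library, and 3 counts equalled 0.0432 to 0.0715 CPM (counts per 1000000 counts). Mitochondrial transcripts held 2.43% to 2.58% of counts in the 6 libraries. Receptor genes of smell (olfactory plus vomeronasal) summed to 138 CPM in PBS 2 and 153 CPM in PBS 3 but to 9.70 to 12.5 CPM elsewhere. Genes detected numbered 23259 in PBS 2 and 22976 in PBS 3, against 20073 in PBS 1 and 20270 to 20587 in NP. In this sum and in this number PBS 2 and PBS 3 stand apart from the other 4 libraries. Between libraries of a group, a chi-square per gene was largest for NP 1 and NP 2 (19.6) and smallest for PBS 1 and PBS 2 (4.92). The macrophage markers fixed for the check were all detected, with summed levels of 13249 to 13468 CPM in PBS and 9860 to 11013 CPM in NP. Of the 9, 7 were lower in NP and 1 was higher (77.8% and 11.1%, beside 21.4% and 19.8% of all genes tested). Of the IL-4-induced markers, 6 of 10 were lower and 1 was higher (60% and 10%), with sums of 1841 to 2134 CPM in PBS and 864 to 997 CPM in NP. Mrc1, which fell, is in both lists, so their counts and sums are not independent. The erythroid list had at most 0.0715 CPM in any library, with 3 of its 5 genes at 0 counts, and the lymphoid list at most 1.55 CPM, with 3 of 8 at 0. The neutrophil, dendritic, fibroblast and mast cell lists stayed at or below 1.14, 4.10, 1.62 and 0.453 CPM, with 2 of 8, 0 of 7, 0 of 7 and 5 of 6 genes at 0 counts. In the first 3 of these lists 1 of 2, 1 of 3 and 1 of 3 tested genes were higher and 0 lower. The shares higher were 50%, 33.3% and 33.3%, beside 19.8% of all genes tested, over very few genes. They were S100a8 (79 counts in PBS and 158 in NP), Ccr7 (1 and 85) and Pdgfra (13 and 52). The endothelial list reached 19.2 to 20.9 CPM, mostly from Kdr at 16.6 CPM in PBS and 18.2 CPM in NP, and Cdh5 stayed at 0.347 and 0.425 CPM. Of 4 tested endothelial markers 1 (Kdr) was higher and 2 were lower (25% and 50%, again over very few genes). The lower ones were Pecam1 and Tie1, with log2 fold changes, NP minus PBS, of -1.39 and -0.46. Osteoclast markers, several shared with macrophages, summed to 858.2 to 974.6 CPM in PBS and 1211 to 1433 CPM in NP. Atp6v0d2 held 849 and 1279 CPM of these sums, while Calcr was at 0 counts. Of 6 tested osteoclast markers 3 were higher and 1 lower (50% and 16.7%, beside 19.8% and 21.4% of all genes tested). Besides Atp6v0d2, Ctsk (7.84 and 12.6 CPM) and Acp5 (8.17 and 9.66 CPM) were higher, and Ocstamp (11.2 and 7.11 CPM) was lower. The part of these differences in the results below was not tested.

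Of the 10 genes, Vegfa and Ndrg1 were higher in NP, Epas1 and Egln1 were lower by a small margin, and the other 6 did not pass the test. Among all genes tested, 41.2% passed an adjusted p of 0.05 in limma voom, 19.8% as higher and 21.4% as lower in NP, so that 2 of 10 in each direction is a share near that of the whole table. The median log2 fold change, NP minus PBS, was 0.00 for the 10 genes and 0.00 for all genes tested. In the same 4 genes the ranges of the 2 groups were separate, 2 in each direction, beside 26.5% (higher) and 26.8% (lower) of all genes tested. Vegfa and Ndrg1 were called higher in each of 15 alternative fits, whereas the number of lower calls ran from 0 to 3. With PBS 2 and PBS 3 both left out, 2 of the 10 genes were higher and 0 lower, beside 7.95% and 11.8% of all genes tested in that fit. None of the 10 genes changed by as much as 2-fold, which 4.02% of the genes tested did with an adjusted p under 0.05 in limma voom.

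**Figure D1:**
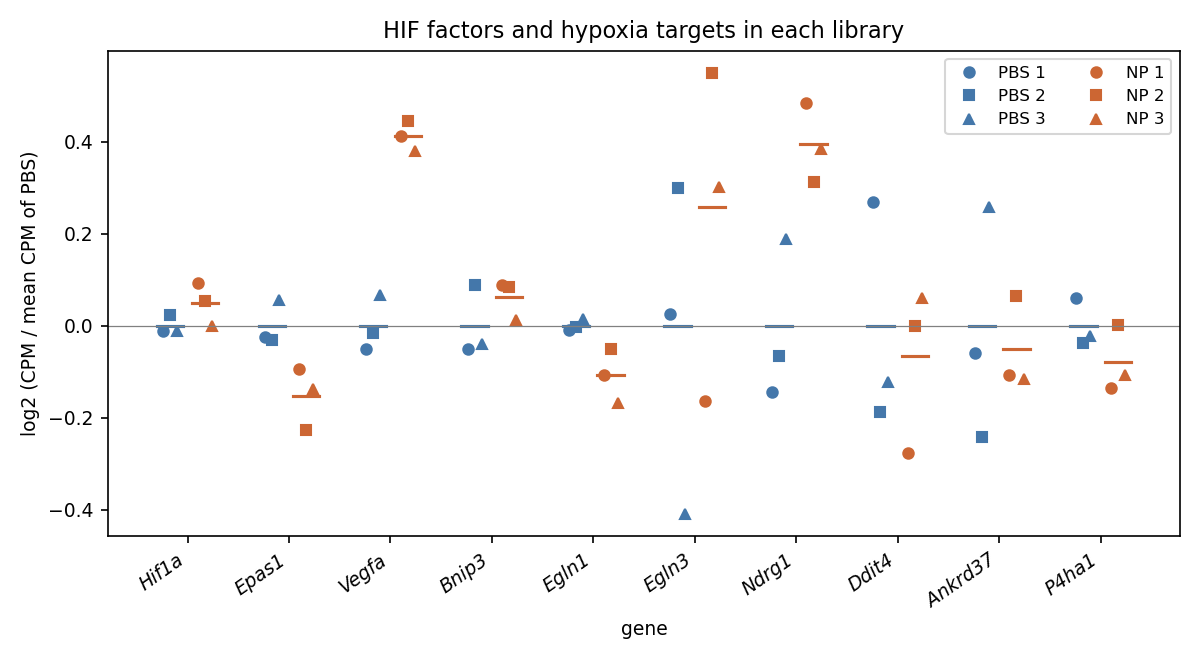
Level of each of the 10 genes in each library, as log2 of CPM over the mean CPM of PBS; symbols give the library number, colours the group, and short lines the log2 of the group mean. NP libraries lie above all PBS libraries for Vegfa and Ndrg1 and below them for Epas1 and Egln1, and the groups overlap for the other 6 genes.

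The DNA letters that HIF binds were looked up in the window from 250 bases before to 50 bases after each gene start given by RefSeq (GRCm38.p6). For Hif1a and Ankrd37 that start lies inside the gene bounds given below, not at their 5′ ends. Windows were found for 8 of the 10 genes, 9 windows in all since Vegfa had a pair of starts; Epas1 and Ndrg1 had none. The core motif was searched as ACGTG and GCGTG on both strands, counting overlapping matches, and 43.8% of 32851 windows of this length held at least 1 match while 20.6% held at least 2. Of the 9 windows 8 held a match. The following 4 windows are shown because Vegfa and Egln1 are the called genes with a window, and because Bnip3 and Ankrd37 held the most matches, 5 and 4. Capitals mark the motif letters on either strand, and each sequence runs 5′ to 3′ on the gene's own strand, here the minus strand in all 4.
Vegfa, chr17:46032328-46032627: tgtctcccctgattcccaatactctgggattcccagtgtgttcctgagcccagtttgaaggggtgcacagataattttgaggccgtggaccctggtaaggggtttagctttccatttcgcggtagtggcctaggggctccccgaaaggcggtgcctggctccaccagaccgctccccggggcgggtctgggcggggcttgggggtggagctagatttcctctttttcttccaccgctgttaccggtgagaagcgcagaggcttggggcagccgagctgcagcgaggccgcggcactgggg
Egln1, chr8:124949205-124949504: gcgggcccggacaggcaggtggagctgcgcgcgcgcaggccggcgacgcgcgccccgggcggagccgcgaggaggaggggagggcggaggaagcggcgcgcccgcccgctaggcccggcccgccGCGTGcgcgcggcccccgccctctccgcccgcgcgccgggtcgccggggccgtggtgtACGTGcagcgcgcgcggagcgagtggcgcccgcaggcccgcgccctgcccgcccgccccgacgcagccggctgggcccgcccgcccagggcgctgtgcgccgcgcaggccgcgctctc
Bnip3, chr7:138909457-138909756: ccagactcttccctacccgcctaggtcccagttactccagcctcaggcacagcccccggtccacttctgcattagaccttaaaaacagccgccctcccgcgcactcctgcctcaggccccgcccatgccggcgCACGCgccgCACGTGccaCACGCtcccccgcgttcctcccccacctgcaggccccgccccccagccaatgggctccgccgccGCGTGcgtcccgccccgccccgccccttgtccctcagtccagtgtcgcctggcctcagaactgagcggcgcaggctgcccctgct
Ankrd37, chr8:45999801-46000100: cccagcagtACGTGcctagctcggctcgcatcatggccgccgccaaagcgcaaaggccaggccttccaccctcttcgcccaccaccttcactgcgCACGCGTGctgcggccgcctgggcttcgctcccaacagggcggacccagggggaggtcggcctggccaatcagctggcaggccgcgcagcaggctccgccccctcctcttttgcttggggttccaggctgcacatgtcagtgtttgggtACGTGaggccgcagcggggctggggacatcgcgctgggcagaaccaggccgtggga

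The window at the upstream start of Vegfa held 0 matches, and that at its downstream start, chr17:46025114-46025413, held 2. In Egln1 the matches began 126 and 68 bases before the RefSeq start, and in Ankrd37 the nearest began 6 bases before its internal RefSeq start. Hif1a and P4ha1 held 3 matches each, Ddit4 held 2 and Egln3 held 1. GC content of the 9 windows ran from 54.7% (Egln3) to 86.0% (Egln1), and the motif letters are themselves rich in G and C. A match is no evidence of binding, and a window without these letters says nothing on sites elsewhere.

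Of the alpha subunits, Hif1a (chromosome 12, 73901375 to 73947530, plus strand; coordinates of the 10 genes are from GENCODE M21 on GRCm38) was at 120.3, 123 and 120.2 CPM in PBS 1 to 3 and at 129, 126 and 121 CPM in NP 1 to 3. The groups overlapped, since NP 3 lay below PBS 2. Its log2 fold change was 0.05 (SE 0.03, 95% interval from -0.03 to 0.12, limma adjusted p = 0.271), and this interval leaves room for no more than a small rise. The annotation places the antisense gene Gm15283 across 330 exonic bases of Hif1a, but it held only 4 counts in each group, against 18275 and 23718 for Hif1a. The protein-coding gene Gm49321, on the same strand, shares 148 exonic bases with Hif1a. No counts were found for Gm49321, so its part was not checked.

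Epas1 (chromosome 17, 86753700 to 86833410, plus strand) was at 31.0, 30.9 and 32.9 CPM in PBS and at 29.6, 27.0 and 28.7 CPM in NP. Every NP library was below every PBS library, and NP 2 was the lowest. The log2 fold change was -0.15 (SE 0.05, 95% interval from -0.26 to -0.05, limma adjusted p = 0.0276), so that Epas1 fell by 10.0%. It missed the threshold without PBS 1, PBS 3, NP 2 or NP 3 (limma adjusted p = 0.0666, 0.108, 0.101 and 0.102), and after leaving out both PBS 2 and PBS 3 (0.228). The sign was negative in all of the alternative fits.

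The subunits were also compared within each library. The log2 of Epas1 over Hif1a counts was -1.95, -2.00 and -1.87 in PBS and -2.13, -2.22 and -2.08 in NP. The groups did not overlap, with a difference of -0.20. An exact two-sided permutation test gave p = 0.1 (0.2 adjusted over the 2 ratios tested). That is the smallest p that 3 against 3 libraries allow, so this test could not pass 0.05 and cannot decide. The ratio needs no scaling between libraries, and leaving out single libraries gave differences of -0.23 to -0.16. Over 9928 genes of at least 5 CPM, the patterns across the 6 libraries most like Hif1a were those of Ube3c, Snapc2 and Armc8 (Pearson r of log2 CPM 0.9917, 0.9752 and 0.9747), and most like Epas1 those of Nrcam, Mcf2l and Slc17a5 (0.998, 0.989 and 0.983). These coefficients are descriptions over 6 libraries that share group and scaling.

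Egln1, the main HIF prolyl hydroxylase PHD2, was at 63.1, 63.4 and 64.1 CPM in PBS and at 59.0, 61.3 and 56.5 CPM in NP (chromosome 8, 124908587 to 124949324, minus strand). The PBS libraries were close together and above all NP libraries. The log2 fold change was -0.11 (SE 0.04, 95% interval from -0.19 to -0.03, limma adjusted p = 0.0398), so that Egln1 fell by 7.27%. It missed the threshold without PBS 1, PBS 2, PBS 3, NP 1 or NP 3 (limma adjusted p = 0.112, 0.0711, 0.111, 0.115 and 0.197) and after leaving out both PBS 2 and PBS 3 (0.259), and the sign stayed negative.

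Egln3, the hydroxylase PHD3 and itself a well-known HIF target, was barely present. It had 21, 19 and 14 counts in PBS and 22, 32 and 27 counts in NP, or 0.362 ± 0.087 and 0.433 ± 0.104 CPM (SD, n = 3 each). NP 1 lay within the PBS range, and the log2 fold change of 0.24 (SE 0.29, 95% interval from -0.41 to 0.90, limma adjusted p = 0.539) was not distinguishable from 0 at this depth. The log2 of Egln3 over Egln1 moved from -7.48 to -7.12, a difference of 0.37, and NP 1 lay within the PBS range. The exact two-sided permutation p was 0.3 (also 0.3 adjusted over the 2 ratios), in a test that cannot go below 0.1.

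Other parts of the HIF machinery changed little. Of 14 tested genes among 15 (other subunits, hydroxylases, the VHL ligase and coactivators), 3 rose and 0 fell, beside the 19.8% and 21.4% of all genes, with a median log2 fold change of 0.05 against 0.00 for all genes tested. The 3 were Hif1an, the asparaginyl hydroxylase that blocks HIF transactivation (0.17, SE 0.03), Cul2, the scaffold of the VHL ligase (0.15, SE 0.04), and Arnt, the beta subunit (0.15, SE 0.04), with limma adjusted p of 0.00356, 0.00949 and 0.0135. Vhl itself was at 20.7 ± 0.177 CPM in PBS and 22.4 ± 1.49 CPM in NP (SD, n = 3 each; log2 fold change 0.11, limma adjusted p = 0.129). Hif3a, the remaining alpha subunit and named after its values were seen, was not tested; its 19 counts were all in PBS 2 and PBS 3, with 10 and 9. The count that rose was 5 without NP 2, and 1 gene fell without PBS 1. Fewer rose with PBS 2 and PBS 3 both left out, where fewer of all genes tested were called too.

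Vegfa, the vascular endothelial growth factor and a classical HIF target secreted by macrophages, showed the largest change of the 10 genes, by a margin over Ndrg1 that lies within their errors. It was at 20.4, 20.8 and 22.1 CPM in PBS and at 28.1, 28.7 and 27.4 CPM in NP (chromosome 17, 46016993 to 46032369, minus strand). Both groups were tight and well apart. The rise was 1.33-fold, a log2 fold change of 0.41 (SE 0.05, 95% interval from 0.31 to 0.52, limma adjusted p = 1.35e-04), and 7.36% of the genes tested had a higher value. It ranged from 0.40 to 0.45 with single libraries left out.

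Among 8 tested genes of 9 VEGF ligands and receptors other than Vegfa, 1 rose and 2 fell (12.5% and 25%), shares near the 19.8% and 21.4% of all genes tested, with a median log2 fold change of -0.04. Flt1, the receptor VEGFR1 of monocytes and macrophages, went from 123 ± 3.12 to 89.1 ± 3.66 CPM (-0.47, SE 0.04), and Nrp1, a co-receptor, from 228 ± 3.69 to 171 ± 6.61 CPM (-0.42, SE 0.04; SD, n = 3 each). Kdr, which encodes VEGFR2, had a small rise (0.14, SE 0.05, limma adjusted p = 0.0369). No gene of the list rose without PBS 1, PBS 2, PBS 3 or NP 3. The same held with PBS 2 and PBS 3 both left out, where fewer of all genes tested were called. Pgf, placental growth factor, was at 0.233 ± 0.061 and 0.490 ± 0.231 CPM (limma adjusted p = 0.129).

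Ndrg1, a stress-responsive gene raised by hypoxia and also linked to differentiation, was at 99.2, 105 and 125 CPM in PBS and at 153, 136 and 143 CPM in NP (chromosome 15, 66929318 to 66969640, minus strand). The groups did not overlap, although PBS 3 came within reach of NP 2. The rise was 1.32-fold, a log2 fold change of 0.40 (SE 0.08, 95% interval from 0.23 to 0.58, limma adjusted p = 0.00298). It was between 0.35 and 0.50 without single libraries, with limma adjusted p of at most 0.0293, and 0.53 without both PBS 2 and PBS 3. The genes on the opposite strand that overlap its exons, Gm2895 and Gm17035, held 5 and 0 counts in PBS and 11 and 0 in NP, against 16536 and 27310 for Ndrg1.

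Of the 3 paralogs of Ndrg1, 1 was higher and 1 lower (33.3% each, beside 19.8% and 21.4% of all genes tested). They are too few to compare with those shares. Ndrg3 was lower, 41.8 ± 1.48 CPM in PBS and 36.7 ± 0.801 CPM in NP (SD, n = 3 each), with a log2 fold change of -0.19 (limma adjusted p = 0.00473). Ndrg4 was higher by 0.69 (limma adjusted p = 0.0121) at a low level, with 2.74 ± 0.533 CPM in NP. Ndrg2, at 0.305 and 0.443 CPM, did not pass (limma adjusted p = 0.176). Fewer of the 3 passed with PBS 2 and PBS 3 both left out, and so did fewer of all genes tested.

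Bnip3, a mitophagy receptor of the outer mitochondrial membrane and a direct HIF target, was at 14.8, 16.3 and 14.96 CPM in PBS and at 16.4, 16.3 and 15.5 CPM in NP (chromosome 7, 138890836 to 138909519, minus strand). PBS 2 lay among the NP libraries, so the groups overlapped. The log2 fold change was 0.07 (SE 0.05, 95% interval from -0.05 to 0.19, limma adjusted p = 0.342). Its overlapping antisense gene Gm45507 held 1 count in PBS and 0 in NP.

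Of 11 tested genes among 12 other mitophagy genes, 6 rose and 0 fell (54.5% and 0%, beside 19.8% and 21.4% of all genes tested), with a median log2 fold change of 0.12. Bnip3l, the paralog of Bnip3 and also known as NIX, went from 140 ± 4.73 to 196 ± 15.4 CPM (0.48, SE 0.05), and the adaptors Sqstm1 (0.54, SE 0.06), Tax1bp1 (0.46, SE 0.04) and Optn (0.41, SE 0.06) also rose (SD, n = 3 each). Sqstm1 and Tax1bp1 serve general autophagy as well as mitophagy. Pink1, the kinase that marks damaged mitochondria and named after its values were seen, was at 52.2 and 56.7 CPM (0.12, limma adjusted p = 0.0876). The difference between Bnip3 and Bnip3l was not tested.

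Ddit4 encodes REDD1, an inhibitor of mTORC1 signalling raised by hypoxia and by other stresses. It was low, at 1.74, 1.27 and 1.32 CPM in PBS and 1.19, 1.44 and 1.51 CPM in NP (chromosome 10, 59949669 to 59951834, minus strand). PBS 1 was the highest and NP 1 the lowest of the 6, and the other 4 lay between them. The log2 fold change was -0.09 (SE 0.18, 95% interval from -0.48 to 0.31, limma adjusted p = 0.728), and the sign turned without PBS 1 (0.085) or NP 1 (0.027).

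Among 9 other inhibitors of mTORC1, 2 rose and 4 fell (22.2% and 44.4%, beside 19.8% and 21.4% of all genes tested), with a median of -0.11. Tsc1, a subunit of the complex through which REDD1 acts, was higher (0.23, SE 0.04), while the sestrin genes Sesn3 (-0.70, SE 0.08) and Sesn1 (-0.37, SE 0.06) and Deptor (-0.35, SE 0.06) were lower. Leaving out both PBS 2 and PBS 3 gave fewer calls in this list, and also fewer among all genes tested.

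Ankrd37, a small ankyrin repeat protein gene known as a HIF-1 target, was at 1.703, 1.501 and 2.12 CPM in PBS and at 1.65, 1.86 and 1.64 CPM in NP (chromosome 8, 45996902 to 46005707, minus strand). The NP libraries all lay within the PBS range. Its log2 fold change was -0.05 (SE 0.15, 95% interval from -0.40 to 0.30, limma adjusted p = 0.812), and the sign turned without PBS 3 (0.082). It shares 57 exonic bases with Ufsp2 on the other strand, which held 16874 counts in PBS and 21784 in NP against 270 and 323 for Ankrd37, and 349 with Lrp2bp (20 and 18 counts). Without a stated strand setting, reads in the shared bases cannot be told apart.

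P4ha1, the catalytic alpha subunit of collagen prolyl 4-hydroxylase, was at 119, 111 and 113 CPM in PBS and at 104, 115 and 106 CPM in NP (chromosome 10, 59323296 to 59373304, plus strand). NP 2 lay among the PBS libraries. The log2 fold change was -0.08 (SE 0.04, 95% interval from -0.18 to 0.02, limma adjusted p = 0.173). Without PBS 2 and NP 2 together it passed (-0.14, limma adjusted p = 0.0267).

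Of 8 tested genes among 10 other collagen hydroxylases and their partners, 3 rose and 2 fell (37.5% and 25%, beside 19.8% and 21.4% of all genes tested), with a median of 0.02. P4hb, the beta subunit of the same enzyme and a protein disulfide isomerase, went from 854 ± 37.0 to 1048 ± 41.8 CPM (0.29, SE 0.04; SD, n = 3 each), and the prolyl 3-hydroxylase genes P3h3 (0.35, SE 0.06) and P3h1 (0.19, SE 0.04) were also higher. The lysyl hydroxylase gene Plod1 was lower (-0.31, SE 0.05). Fewer of these genes were called with PBS 2 and PBS 3 both left out, where fewer of all genes tested were called too.

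**Figure D2:**
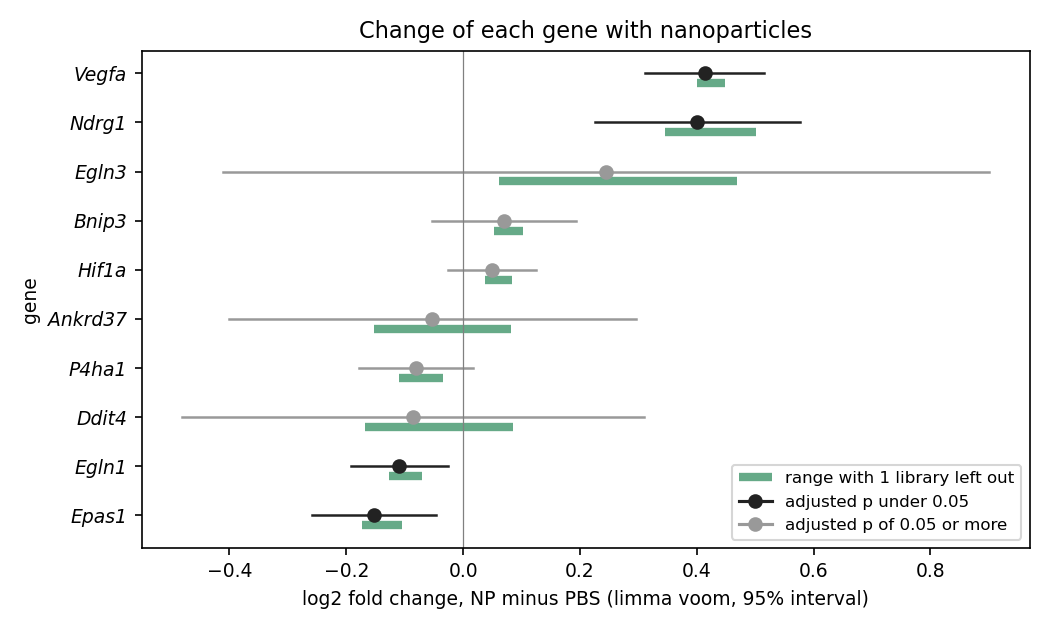
Log2 fold change, NP minus PBS, of each gene with its 95% interval from limma voom, dark where adjusted p was under 0.05; green bars give the range of the estimate with single libraries left out. Vegfa (0.41) and Ndrg1 (0.40) stand clear of 0, Epas1 (-0.15) and Egln1 (-0.11) lie just below it, and the low-count genes Egln3, Ddit4 and Ankrd37 have the widest intervals.

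Levels between genes were compared per exonic kilobase (union of annotated exons). In PBS the order was P4ha1 at 27.8 ± 1.02, Hif1a at 20.6 ± 0.295, Egln1 at 17.7 ± 0.152 and Ndrg1 at 16.6 ± 2.06 CPM per kilobase, then Bnip3 (6.79 ± 0.369), Epas1 (5.65 ± 0.196) and Vegfa (4.92 ± 0.205; SD, n = 3 each). Ankrd37 (1.15), Ddit4 (0.822) and Egln3 (0.136) came last. The ranges of neighbours overlapped for Egln1 and Ndrg1 and for Ankrd37 and Ddit4, and for no other neighbours. In NP Ndrg1 (21.9 ± 1.32) stood beside Hif1a (21.3 ± 0.692), with overlapping ranges, and Vegfa (6.55 ± 0.151) stood above Epas1 (5.09 ± 0.236), without overlap.

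The order depends on the length used: with the longest transcript in place of all exons, Vegfa was above Epas1 in PBS too (6.11 against 5.73 CPM per kilobase), and Ndrg1 led in NP (35.6). In PBS 82.8% of the tested genes with a known length had a lower level per kilobase than Hif1a, and 54.2% had a lower level than Epas1. For Egln3 that share was 8.39%.

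**Figure D3:**
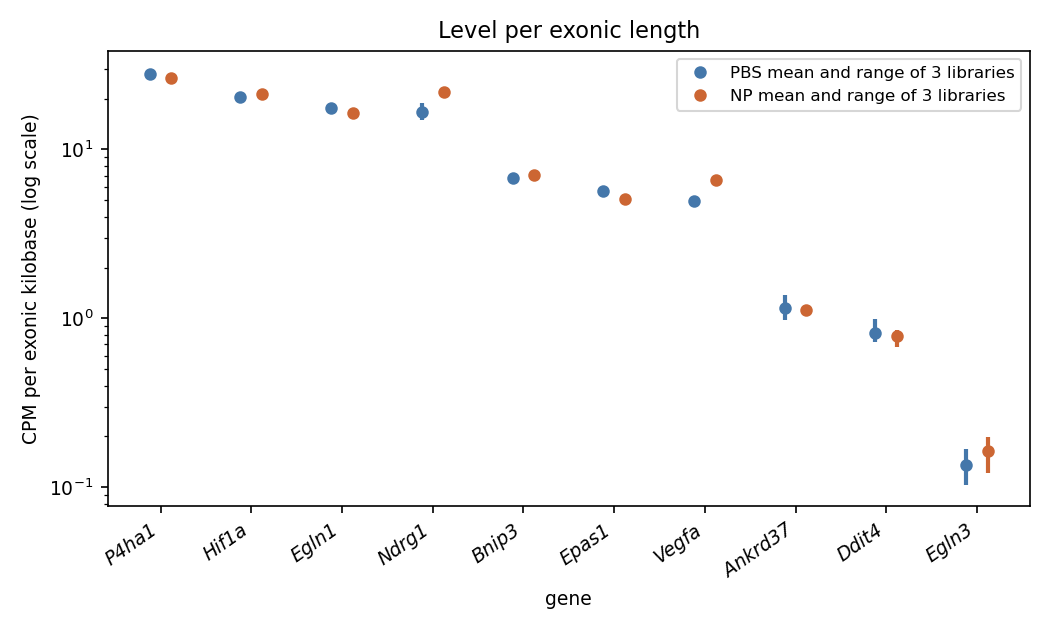
Level of each gene in CPM per exonic kilobase on a log axis; points are means and vertical lines the range of 3 libraries in PBS (blue) and NP (orange). P4ha1 is highest at 27.8 in PBS and Egln3 lowest at 0.136, and Vegfa and Epas1 exchange places between the groups.

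Of 23 glycolytic HIF targets 17 rose and 2 fell, or 73.9% and 8.7% beside 19.8% and 21.4% of all genes, with a median of 0.19 (log2) and a summed level of 6498 to 6630 CPM in PBS and 7344 to 7663 CPM in NP. Slc2a1, the glucose transporter GLUT1, went from 78.0 ± 1.41 to 107 ± 1.57 CPM (0.46, SE 0.03), Pgam1, a phosphoglycerate mutase, had 0.44 (SE 0.04), Aldoa, an aldolase, 0.30 (SE 0.03) and Pfkfb3, which makes an activator of glycolysis, 0.50 (SE 0.06; SD, n = 3 each). The 2 that fell were Pfkp (-0.15) and Pfkfb4 (-0.27), named after their values were seen. Pdk1, a HIF target that holds pyruvate back from mitochondria and was likewise named after its values were seen, did not pass (-0.09, limma adjusted p = 0.414). With PBS 2 and PBS 3 both left out fewer of these targets were called higher, but so were fewer of all genes tested.

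Of the other HIF targets, 32 of 38 were tested, 11 rose and 5 fell, and the median was 0.09. These shares were 34.4% and 15.6%, beside 19.8% and 21.4% of all genes tested. The list shares Bnip3l with the mitophagy genes, and P4ha2, Plod1 and Plod2 with the collagen hydroxylases. Bhlhe41, a transcriptional repressor, went from 208 ± 4.90 to 351 ± 19.1 CPM (0.75, SE 0.04), Plin2, a lipid droplet coat protein gene, from 538 ± 28.1 to 814 ± 51.2 CPM (0.60, SE 0.05), and Plaur, the urokinase receptor, had 0.50 (SE 0.04; SD, n = 3 each). Tfrc, the transferrin receptor, fell from 167 ± 14.8 to 97.1 ± 5.36 CPM (-0.78, SE 0.06). The marker Car9, one of the most used reporters of hypoxia and named after its values were seen, was at 4.64 and 4.996 CPM and did not pass (0.11, limma adjusted p = 0.354). Adm and Nos2, named likewise, had 8 and 36 counts over all 6 libraries and were not tested. The number that rose was 7 without NP 1 or NP 3, and the number that fell was 2 without either and 3 without NP 2. With PBS 2 and PBS 3 both left out fewer rose and fewer fell, as among all genes tested.

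**Figure D4:**
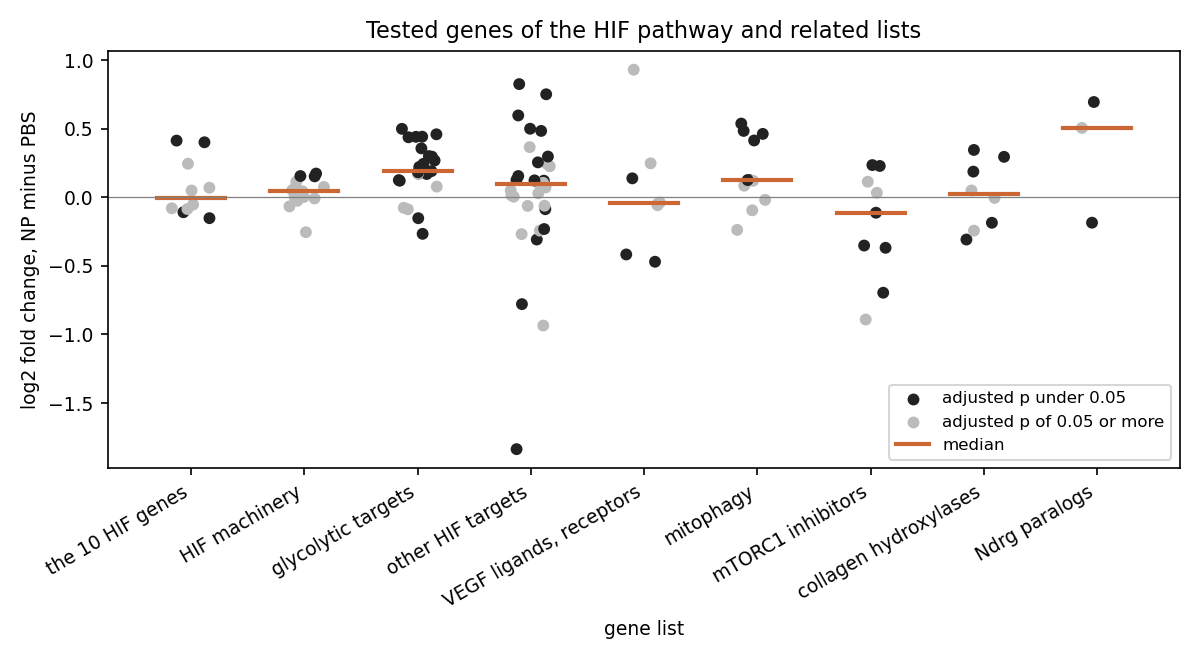
Log2 fold change, NP minus PBS, of every tested gene in the 10 HIF genes and in 8 related lists, dark where limma adjusted p was under 0.05, with the list median as an orange line. The glycolytic targets lie mostly above 0 (17 of 23 higher), whereas the 10 HIF genes spread on both sides around a median of 0.00.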

How the data were processed

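Expected counts per gene, as the authors deposited them, were not scaled for depth and filled 6 columns, 1 for each library. RSEM 1.3.3, STAR 2.7.8a, cutadapt 2.3, MultiQC 1.7, FastQC 0.11.8 and the GRCm38 build are named in the submitters' processing notes, without their roles. No source used here states the annotation release or the strand setting. All values were whole numbers, and 4 reporter rows with 0 counts were left out. limma voom (limma 3.58.1, R 4.3.3) was fitted on group alone over 14478 genes, with 4 residual degrees of freedom and Benjamini-Hochberg adjustment over all of them. It replaced the count tests of the plan, which need a column check that the table's layout prevented. The filter asked for 0.171 CPM in 3 libraries and 15 counts in total. Scaling used trimmed-mean factors (0.979 to 1.02), and voom added 0.5 to each count. The fit was tested on simulated data. CPM of single genes uses scaled library sizes over tested genes; summed lists and limits use library totals, and limits cover counting error only. A symbol on more than 1 row (Aldoa) was taken at the row with most counts. Exonic lengths were from GENCODE M21.

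The 10 genes and all gene lists were chosen with earlier results of these data known. Named were all 10 genes and, in each pathway list, the 4 genes with the smallest p. The 3 genes most correlated with Hif1a and with Epas1 were also named. Markers named in the other lists were not always those with the highest level, and for some lists none was named. Alternatives were other scaling, filters, a replicate block, libraries left out, and, added after seeing the data, limma-trend and sample quality weights.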

Additional observations from a re-analysis of the deposited data

How the results depend on the processing

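Vegfa and Ndrg1 were called higher in all 15 alternative fits, with log2 fold changes of 0.38 to 0.46 and 0.35 to 0.53, and Hif1a and Bnip3 passed in none of theirs (0.02 to 0.08 and 0.04 to 0.11). Of 487 recomputed values, 417 kept their direction and side of the threshold, or stayed close for counts and levels. The 2 ratios were judged by direction only, and with the replicate block they were set as unchanged. For the number of the 10 genes called, 9 recomputed counts moved and 21 did not. With 1 library left out in turn, all genes called higher ran from 2102 to 2971 and lower from 1975 (without NP 3) to 3850, lower calls among the 10 genes from 0 to 1, Epas1 from -0.17 to -0.10, Egln1 from -0.13 to -0.071, Ddit4 from -0.17 to 0.085 (positive at 0.085 without PBS 1 and 0.027 without NP 1) and Ankrd37 from -0.15 to 0.082 (positive without PBS 3). In the same fits machinery genes ran from 2 to 5 higher and 0 to 1 lower, other HIF targets from 7 to 12 higher and 2 to 4 lower, and VEGF genes from 0 to 1 higher. Without both PBS 2 and PBS 3, where the lone PBS library is assumed to vary like the NP libraries, 1197 genes were higher and 1775 lower, 0 of the 10 genes lower (Epas1 -0.13, Egln1 -0.10), and list counts of higher genes were 0 for the machinery, 10 for glycolytic targets, 6 for other targets, 0 for VEGF genes, 1 for mTORC1 inhibitors, 1 for collagen hydroxylases and 0 for Ndrg paralogs, with 2, 2, 1 and 0 lower among other targets, mTORC1 inhibitors, collagen hydroxylases and paralogs. Without the low-count filter 0 of the 10 genes were lower (Epas1 -0.13, Egln1 -0.088), 3 other targets were lower and 0 VEGF genes higher. With library totals only, 7 other targets and 0 VEGF genes were higher. Without PBS 2 and NP 2 together Epas1 had -0.13 (limma adjusted p = 0.0744) and P4ha1 passed at -0.14. Sample quality weights gave P4ha1 -0.10 (limma adjusted p = 0.0376), 2 VEGF genes higher and 1 mitophagy gene lower. The cause of these changes was not tested; with PBS 1 alone or with libraries left out, fewer samples entered the fit, and without the filter 27636 genes were tested. limma-trend called 5964 genes, as many as voom, with 5891 in common.

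With the replicate number as a block, 2353 genes were higher and 2669 lower, and among the 10 genes 2 were higher and 1 lower, since Egln1 did not pass (-0.11, limma adjusted p = 0.0825). Deviations of same-numbered libraries correlated at -0.09, -0.24 and -0.27, and those of differently numbered libraries at -0.19 to 0.43. Centring within each group ties these values to one another, so they cannot decide whether the numbers pair the samples. The count tests of the plan (quasi-likelihood and Wald) were not run, and Egln3 gave no value under the strict filter. Egln3, Ddit4 and Ankrd37 had the fewest counts of the 10 genes and the widest 95% intervals.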
